A study of Mus musculus with 4 samples.

Results

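Scavenger receptors are the surface receptors through which macrophages bind and take up modified lipoproteins, dead cells, haemoglobin, glycans and other debris, and 10 of their genes were followed here across the macrophages and other myeloid cells of mouse popliteal lymphatic vessels and saphenous veins. The 10 genes, chosen by name, were *Cd163*, *Msr1*, *Marco*, *Colec12*, *Cd36*, *Stab1*, *Mrc1*, *Lyve1*, *Folr2* and *Timd4*, out of 30406 genes present in all 4 single-cell libraries. The tdT1 and tdT2 libraries held cells sorted for tdTomato (tdT) from male and female mice older than 8 months heterozygous for the *Cspg4*-Cre driver and the Ai9-tdTomato reporter, so a macrophage in these libraries had passed a gate meant for mural cells. The WT library came from male wild-type mice and the TNF-Tg library from male mice of a tumour necrosis factor transgenic line with inflammatory-erosive arthritis, both labelled as 9 months old, and both were sorted on scatter without a fluorescent marker. All mice had a C57BL/6J background, all were given Evan's blue dye in the hindpaw to show the vessels, and each library pooled the vessels of 3 mice. WT and TNF-Tg were therefore 1 library each, and condition, library, sort and the individual mice cannot be told apart in any difference between them.

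As background, resident tissue macrophages are long-lived cells that line vessels and connective tissue and keep it clear of debris, and around lymphatic and blood vessels they are known for LYVE1, CD163, the mannose receptor and folate receptor beta on their surface. Most of these receptors work by endocytosis: the ligand binds outside the cell, the receptor carries it into endosomes, and the emptied receptor returns to the surface while the cargo goes to the lysosome. CCR2 is the chemokine receptor that draws monocytes out of blood, and macrophages that carry it are usually younger than those that do not.

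The libraries held 454 to 5488 cells and 2357031 to 68773605 unique molecular identifiers (UMIs, 1 per captured mRNA molecule), with median UMIs per cell from 4932.5 in tdT2 to 12660 in WT. Cells were sorted into gates with marker genes that included none of the 10 receptors, except in an alternative named below. Part of these markers came from cluster tables of the same libraries. There the authors defined their primary M2 macrophage cluster by high *Cd163*, *Mrc1* and *Lyve1*. A macrophage had at least 20 UMIs of *C1qa*, *C1qb* and *C1qc* per 10000 UMIs and fewer than 50 of a stromal panel. A resident macrophage had in addition at least 10 UMIs per 10000 of *Cd209f*, *Cd209g*, *Cd209d*, *Fcna*, *Ednrb* and *Vsig4*, and a *Ccr2*-positive macrophage had at least 2 of *Ccr2* and fewer than 10 of this resident panel. This gave 1268 resident macrophages in WT, 263 in TNF-Tg, 22 in tdT1 and 48 in tdT2, and 358, 143, 8 and 9 *Ccr2*-positive macrophages in the same order. Of the 1829 WT macrophages, 124 lay at 5 to 10 and 156 at 10 to 20 UMIs of the resident panel per 10000, and of the 428 in TNF-Tg, 14 and 28. All 6 macrophage markers were detected in both gates of every library. Between 0 and 5 cell barcodes were shared by any pair of libraries, and none of them lay in a macrophage gate of both. Resident macrophages had median UMIs of 12269 in WT, 10501 in TNF-Tg, 3420.5 in tdT2 and 2594.5 in tdT1, so that the tdT values carry wider counting intervals.

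Levels are UMIs summed over the cells of a gate in 1 library and scaled to 1000000 UMIs (CPM). Intervals in brackets are exact 95% intervals for counting error and do not cover variation between mice or libraries. Where a count was 0, the level of 3 UMIs is given as a guide, which is below the exact 95% upper limit of such a count.

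Of the receptors, 7 have a promoter entry in the RefSeq table for GRCm38.p6, which spans 250 bases before to 50 after an annotated start, and 5 of these windows are shown, those with 2 or more matches to the motifs searched. Capitals mark 6-letter matches, on either strand, to a PU.1-type motif (GAGGAA or TTCCTC), a MAF-type half-site (TGCTGA or TCAGCA) and a glucocorticoid receptor half-site (AGAACA or TGTTCT), with no overlap between motifs. PU.1 is a transcription factor of the macrophage lineage. All windows are written 5′ to 3′ on the strand of the gene.
*Cd163* (chr6:124304401-124304700, plus strand): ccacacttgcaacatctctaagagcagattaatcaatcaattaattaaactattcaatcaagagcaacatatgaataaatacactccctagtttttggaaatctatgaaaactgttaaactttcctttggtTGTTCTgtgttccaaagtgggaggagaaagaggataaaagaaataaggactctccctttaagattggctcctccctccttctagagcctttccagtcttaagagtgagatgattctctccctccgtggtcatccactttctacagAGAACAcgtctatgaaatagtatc
*Mrc1* (chr2:14229164-14229463, plus strand): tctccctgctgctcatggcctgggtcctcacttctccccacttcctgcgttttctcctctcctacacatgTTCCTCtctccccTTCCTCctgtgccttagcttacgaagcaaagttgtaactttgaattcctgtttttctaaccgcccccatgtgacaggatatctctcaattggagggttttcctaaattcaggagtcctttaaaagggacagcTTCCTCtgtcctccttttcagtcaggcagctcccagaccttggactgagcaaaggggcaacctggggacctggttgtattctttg
*Stab1* (chr14:31168592-31168891, minus strand): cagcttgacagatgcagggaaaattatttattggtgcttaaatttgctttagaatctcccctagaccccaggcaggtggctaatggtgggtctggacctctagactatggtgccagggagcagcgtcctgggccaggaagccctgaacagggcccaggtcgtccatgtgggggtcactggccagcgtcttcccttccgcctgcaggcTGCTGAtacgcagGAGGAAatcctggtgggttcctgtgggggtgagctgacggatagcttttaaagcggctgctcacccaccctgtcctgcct
*Folr2* (chr7:101845282-101845581, minus strand, 1 of 2 annotated starts): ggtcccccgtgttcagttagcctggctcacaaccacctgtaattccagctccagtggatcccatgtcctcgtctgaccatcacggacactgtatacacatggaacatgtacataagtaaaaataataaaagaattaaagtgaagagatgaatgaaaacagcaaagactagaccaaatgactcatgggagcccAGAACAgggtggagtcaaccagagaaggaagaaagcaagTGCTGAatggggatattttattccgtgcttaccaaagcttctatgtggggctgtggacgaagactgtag
*Timd4* (chr11:46810549-46810848, plus strand): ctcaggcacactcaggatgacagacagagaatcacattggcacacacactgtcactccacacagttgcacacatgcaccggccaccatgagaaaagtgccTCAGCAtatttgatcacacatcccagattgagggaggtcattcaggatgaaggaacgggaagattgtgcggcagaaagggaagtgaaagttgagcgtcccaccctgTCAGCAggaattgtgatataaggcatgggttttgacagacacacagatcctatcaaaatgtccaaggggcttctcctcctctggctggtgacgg

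The windows did not share 1 motif. *Cd163* held 2 glucocorticoid half-sites and neither of the others, *Mrc1* held 3 PU.1-type matches, *Timd4* held 2 MAF-type matches, *Stab1* held 1 MAF-type and 1 PU.1-type match, and the window of *Folr2* shown held 1 glucocorticoid and 1 MAF-type match. Of the windows not shown, *Marco* held 1 PU.1-type match, *Cd36* 1 MAF-type match, and the other start of *Folr2* 1 MAF-type match. Over all 32851 windows of the table, 28.3% held the PU.1-type motif, 19.5% the MAF-type motif and 19.0% the glucocorticoid half-site. A match of 6 letters is a description of the sequence and not a binding site.

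The first comparison asked how the receptors separate resident from *Ccr2*-positive macrophages. Of the 10 receptors, 8 passed the low-count filter over the 8 sums of gate and library, and 7 of these were higher in resident macrophages in the edgeR quasi-likelihood test with Benjamini-Hochberg adjustment at 0.01, while *Marco* and *Timd4* did not pass the filter. Of all 7855 genes tested, 6.52% were higher and 4.26% lower in resident macrophages at the same threshold, and no receptor was lower. The median log2 ratio of the 8 tested receptors was 2.28 against 0.03 over all genes. Every one of the 8 was higher in the resident gate in 4 of 4 libraries (see the plot of levels by library). The share of all genes with such agreement is not given here. Some of these differences rest on few counts. *Msr1* in tdT1 had 102 against 101 CPM, from 9 and 7 UMIs, and *Colec12* had 5 against 0 UMIs in tdT1 and 8 against 1 in tdT2. The gates were made on the same cells, so each p-value measures the separation of these gates against the spread over these 4 libraries only. Higher *Cd163*, *Mrc1* and *Lyve1* in the resident gate may also have been favoured by the choice of markers. Without the library as a block, 2 of the 7 calls were left, *Lyve1* and *Colec12*. Both passed the low-count filter through the resident gate, so their calls were favoured by the filter. The calls of *Cd163*, *Cd36*, *Folr2*, *Mrc1* and *Stab1* were lost there (adjusted p = 0.0158 to 0.275 by edgeR). With unsupervised clusters in place of gates, which formed both classes in the WT and TNF-Tg libraries alone, none of the 7 passed (adjusted p = 0.0105 to 0.0797 by edgeR), although every one of these ratios stayed above 0.

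**Figure D1:**
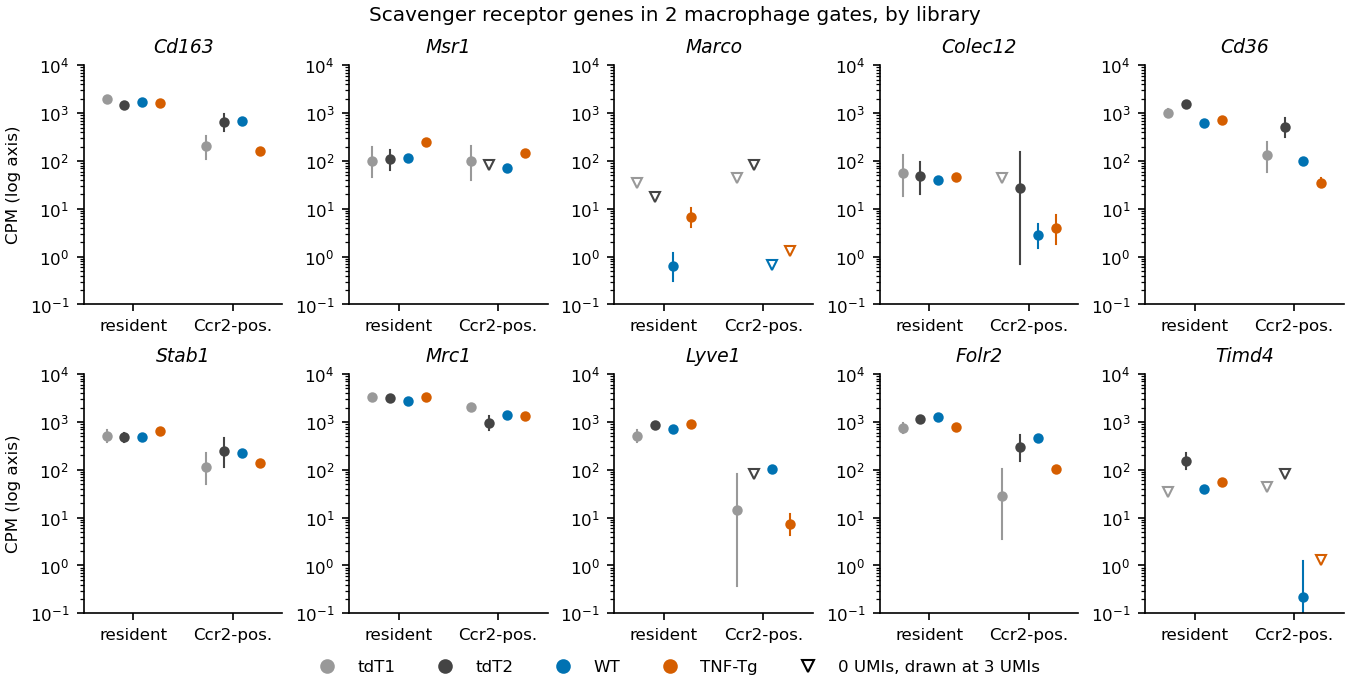
Level of each receptor gene (CPM, log axis) in the resident and Ccr2-positive gates, with 1 point per library and bars for the exact 95% Poisson interval; open triangles stand at the level of 3 UMIs where a library had 0. In *Cd163*, *Cd36*, *Stab1*, *Mrc1*, *Lyve1* and *Folr2* every library is higher in the resident gate, and *Msr1* shows the smallest separation.

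*Cd163* encodes the receptor for complexes of haptoglobin and haemoglobin. Resident macrophages had 1741 CPM in WT, 1618 in TNF-Tg, 1994 in tdT1 and 1487 in tdT2, and *Ccr2*-positive macrophages 669, 163, 203 and 654 CPM in that order. The resident levels were close to each other and did not overlap those of the other gate, whose libraries fell into a higher pair, tdT2 and WT, and a lower pair, tdT1 and TNF-Tg. The ratio was 4.73-fold (log2 2.24 ± 0.29, SE, 4 libraries, adjusted p = 4.0e-13 by edgeR and 9.8e-06 by DESeq2), and the adjusted p was 0.0238 without the library block.

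*Mrc1* encodes the mannose receptor, an endocytic lectin for glycans with terminal mannose or fucose and for collagen fragments. The resident level was 2679 CPM in WT, 3314 in TNF-Tg, 3376 in tdT1 and 3219 in tdT2, against 1423, 1325, 2054 and 954 CPM in the *Ccr2*-positive gate. The groups did not overlap, but the separation was among the smaller ones. The ratio was 2.18-fold (log2 1.12 ± 0.29, SE, adjusted p = 1.2e-03 by edgeR), and this call was lost without tdT2 (adjusted p = 0.0287), without TNF-Tg (adjusted p = 0.0174), in WT and TNF-Tg alone (adjusted p = 0.0255) and without the library block (adjusted p = 0.275). A *Mrc1* UMI was present in 99.9% of WT resident and 92.1% of WT *Ccr2*-positive macrophages after each cell was thinned to 3000 UMIs, so the receptor marked nearly all macrophages of either gate.

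*Lyve1*, a hyaluronan receptor shared with lymphatic endothelium, had the largest fitted ratio between the gates among the 8 tested receptors. It stood at 717 CPM in WT, 897 in TNF-Tg, 510 in tdT1 and 851 in tdT2 in resident macrophages. In the *Ccr2*-positive gate it was 14.5 CPM in tdT1 from 1 UMI, 0 in tdT2, where 3 UMIs would be 81.7 CPM, 105 in WT and 7.53 in TNF-Tg. The ratio was 22.4-fold (log2 4.48 ± 0.33, SE, adjusted p = 1.8e-40 by edgeR and 1.4e-08 by DESeq2). Its size differed between libraries, from log2 2.77 (2.64 to 2.91) in WT to 6.90 (6.21 to 7.68) in TNF-Tg. The fitted log2 ratio of *Lyve1* was 3.27 without TNF-Tg and 6.78 without WT. In WT alone *Colec12* had the larger ratio (log2 3.80, 3.02 to 4.72). *Lyve1* passed the low-count filter through the resident gate, where it was higher, so its call was favoured by the filter and is a description. The 6 endothelial markers summed to 4.22 to 11.3 CPM in resident and 14.5 to 54.5 CPM in *Ccr2*-positive macrophages over the 4 libraries, and their part in the *Lyve1* levels was not tested.

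*Stab1* encodes stabilin-1, which takes up acetylated lipoprotein, the matrix protein SPARC and cell debris. Levels were 510, 480, 486 and 645 CPM in resident macrophages of tdT1, tdT2, WT and TNF-Tg, and 116, 245, 223 and 141 CPM in the *Ccr2*-positive gate. The groups did not overlap, with a ratio of 2.94-fold (log2 1.56 ± 0.25, SE, adjusted p = 2.7e-08 by edgeR, 0.0279 without the library block). In tdT2 alone the counting interval of the log2 ratio (-0.03 to 2.15) included 0.

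*Cd36*, a class B receptor for oxidised lipoprotein, long-chain fatty acids and thrombospondin, had 631 CPM in WT, 712 in TNF-Tg, 1008 in tdT1 and 1541 in tdT2 in resident macrophages. Its levels in the *Ccr2*-positive gate were 101, 35.4, 130 and 518 CPM. The highest *Ccr2*-positive value, that of tdT2, was below the lowest resident value, that of WT. The ratio was 7.72-fold (log2 2.95 ± 0.28, SE, adjusted p = 2.8e-24 by edgeR, 0.0158 without the library block).

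*Folr2* encodes folate receptor beta, a membrane-anchored folate binding protein that is used as a surface label of resident macrophages. Its resident levels were 1288 CPM in WT, 782 in TNF-Tg, 748 in tdT1 and 1145 in tdT2, and its *Ccr2*-positive levels 458, 104, 28.9 and 299.7 CPM. The gates did not overlap, and the ratio was 4.99-fold (log2 2.32 ± 0.28, SE, adjusted p = 5.4e-15 by edgeR, 0.0547 without the library block).

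The class A receptors, trimers with a collagen-like stalk that bind modified lipoprotein and bacterial surfaces, behaved in different ways. *Msr1*, the classical macrophage class A receptor, had 102, 108, 114 and 250 CPM in resident macrophages of tdT1, tdT2, WT and TNF-Tg, and 101, 0, 72.5 and 146 CPM in the *Ccr2*-positive gate, where 3 UMIs of tdT2 would be 81.7 CPM. The groups overlapped, as the TNF-Tg *Ccr2*-positive level exceeded the resident level of the other libraries. The ratio of 1.53-fold (log2 0.61 ± 0.23, SE) did not pass the test (adjusted p = 0.0460 by edgeR, 0.238 by DESeq2).

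*Colec12* encodes a class A receptor with a C-type lectin domain. It was low in both gates, with 56.6, 48.0, 39.8 and 46.3 CPM in resident macrophages of tdT1, tdT2, WT and TNF-Tg and 0, 27.2, 2.86 and 3.99 CPM in the *Ccr2*-positive gate. The 2 tdT values of the latter gate came from 0 and 1 UMI. The ratio was 11.4-fold (log2 3.51 ± 0.36, SE, adjusted p = 2.3e-20 by edgeR), and the gene was not tested when WT or TNF-Tg was left out because it then failed the low-count filter. *Colec12* passed that filter through the resident gate, where it was higher, so its call was favoured by the filter and is a description. With no *Ccr2* minimum, so that every macrophage outside the resident gate was taken for comparison, its log2 ratio was 2.54. Stromal cells had more *Colec12* than any macrophage gate with at least 20 cells in the same library, from 56.8 to 80.8 CPM. The 6 stromal markers summed to 138 CPM in resident and 133 CPM in *Ccr2*-positive macrophages of WT and to 108 and 31.9 CPM in TNF-Tg, and their part in the *Colec12* levels was not tested.

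*Marco*, the class A receptor of splenic and lung macrophages, was nearly absent. It had 10 UMIs among 1268 resident macrophages of WT, of which 50% came from 1 cell, and 21 UMIs among 263 of TNF-Tg, and 0 in the tdT libraries and in the *Ccr2*-positive gate of every library. These are 0.65 CPM (0.31 to 1.19) and 6.85 CPM (4.24 to 10.5). No other gate held a *Marco* UMI except the patrolling monocytes of TNF-Tg, with 5.

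*Timd4* encodes TIM-4, a receptor for phosphatidylserine on dying cells and a label of long-lived resident macrophages. Its resident level was 39.8 CPM in WT, 55.4 in TNF-Tg, 0 in tdT1 and 156 in tdT2, and 1 UMI in WT was the sum of all *Ccr2*-positive macrophages of the 4 libraries. For the 22 resident cells of tdT1, with a count of 0, 3 UMIs would be 34.0 CPM. The exact upper limit of that count is higher than this guide, so it does not place tdT1 below WT at 39.8 CPM. The WT ratio was log2 7.502 (5.02 to 12.8). Without the low-count filter, over 16163 genes, *Timd4* passed the edgeR test and *Marco* did not (adjusted p = 0.0284).

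The number of receptors detected per cell was also counted. Whether they occurred together beyond what their separate shares would give was not tested. After thinning to 3000 UMIs, which kept 1186 of 1268 WT and 243 of 263 TNF-Tg resident macrophages and 342 of 358 and 140 of 143 *Ccr2*-positive ones, a resident macrophage held a median of 6 of the 10 receptors in both WT and TNF-Tg. A *Ccr2*-positive macrophage held a median of 3 in WT and 2 in TNF-Tg. Cells with 5 or more receptors made up 82.4% (80.1 to 84.5) of WT and 87.7% (82.8 to 91.5) of TNF-Tg resident macrophages, against 19.3% (15.3 to 23.9) and 3.57% (1.17 to 8.14) of *Ccr2*-positive macrophages. In neutrophils, which should lack these genes and had a median of 3530 UMIs in WT and 3134 in TNF-Tg, the thinned share with *Cd163* was 3.88% in WT and 1.65% in TNF-Tg, against 81.7% and 90.9% of resident macrophages. Before thinning, *Cd163* was detected in 83.4% and 90.9% of resident macrophages.

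*Timd4* marked a part of the resident gate. A *Timd4* UMI was present in 9.44% (7.84 to 11.3) of thinned WT and 14.4% (10.2 to 19.5) of thinned TNF-Tg resident macrophages, and in 21.4% and 30.4% before thinning. In WT, *Colec12* was detected in 26.8% (18.9 to 36.0) of the 112 thinned resident cells with *Timd4* and in 7.36% (5.87 to 9.08) of the 1074 without. In TNF-Tg the shares were 25.7% (12.49 to 43.3) of 35 cells and 8.17% (4.83 to 12.8) of 208 cells. The intervals did not overlap in WT and overlapped in TNF-Tg. In WT the intervals also lay apart for *Cd163*, at 91.1% (84.2 to 95.6) with and 80.7% (78.2 to 83.0) without *Timd4*, and for *Lyve1*, at 87.5% (79.9 to 93.0) and 76.4% (73.8 to 79.0), and in TNF-Tg they overlapped for both. For *Mrc1*, *Folr2* and *Stab1* they overlapped in both libraries. These intervals treat the cells of 1 library as the unit and do not stand for mice.

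Across the gates, the receptors fell into a macrophage pattern with a few exceptions (see the map of levels by gate). For *Cd163*, *Msr1*, *Colec12*, *Cd36*, *Lyve1*, *Folr2*, *Timd4* and *Mrc1*, resident macrophages had the highest level among the myeloid gates of WT with at least 20 cells. For *Colec12* this leaves aside cells with both C1q and stromal markers (54.4 CPM). *Stab1* was at 505 CPM (474 to 537) in the 203 WT macrophages with neither the resident panel nor *Ccr2* and at 486 CPM (475 to 497) in resident macrophages, intervals that overlap. For *Msr1* these gates also overlapped, at 103.5 CPM (89.98 to 118.6) and 114 CPM (108 to 119). In TNF-Tg the same unclassified gate of 22 cells had 3575 CPM of *Mrc1* against 3314 in resident macrophages. Between the macrophage gates and the rest there was a gap for most receptors. *Lyve1* was at 1.57 CPM or less in the WT gates of dendritic cells with *Cd209a*, *Ear2* phagocytes, cDC1, inflammatory monocytes and neutrophils, and *Folr2* at 8.65 CPM or less.

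The exceptions were gene by gene. *Mrc1* had 542 CPM in WT *Ear2* phagocytes and 297 in WT dendritic cells with *Cd209a*, and *Cd163* had 75.5 and 216 CPM there. *Msr1* had 73.6 CPM in the inflammatory monocytes of WT and 83.3 CPM in those of TNF-Tg, near the 72.5 CPM of WT *Ccr2*-positive macrophages. *Cd36* was at 86.3 CPM (74.4 to 99.5) in the 247 patrolling monocytes of TNF-Tg, above its 35.4 CPM in *Ccr2*-positive macrophages of that library, and at 61.4 CPM in WT cDC1. *Timd4* had 15.3 CPM (8.94 to 24.6) in the WT library and 43.3 CPM (29.97 to 60.5) in TNF-Tg cDC1, the dendritic cells that take up dead cells for cross-presentation, from 17 and 34 UMIs. Outside the myeloid cells, the 36 endothelial cells of tdT1 had 159 CPM of *Cd36*, 150 of *Stab1*, 59.6 of *Lyve1* and 53.0 of *Colec12*. The *Lyve1* value came from 27 UMIs, of which 77.8% were in 1 cell.

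**Figure D2:**
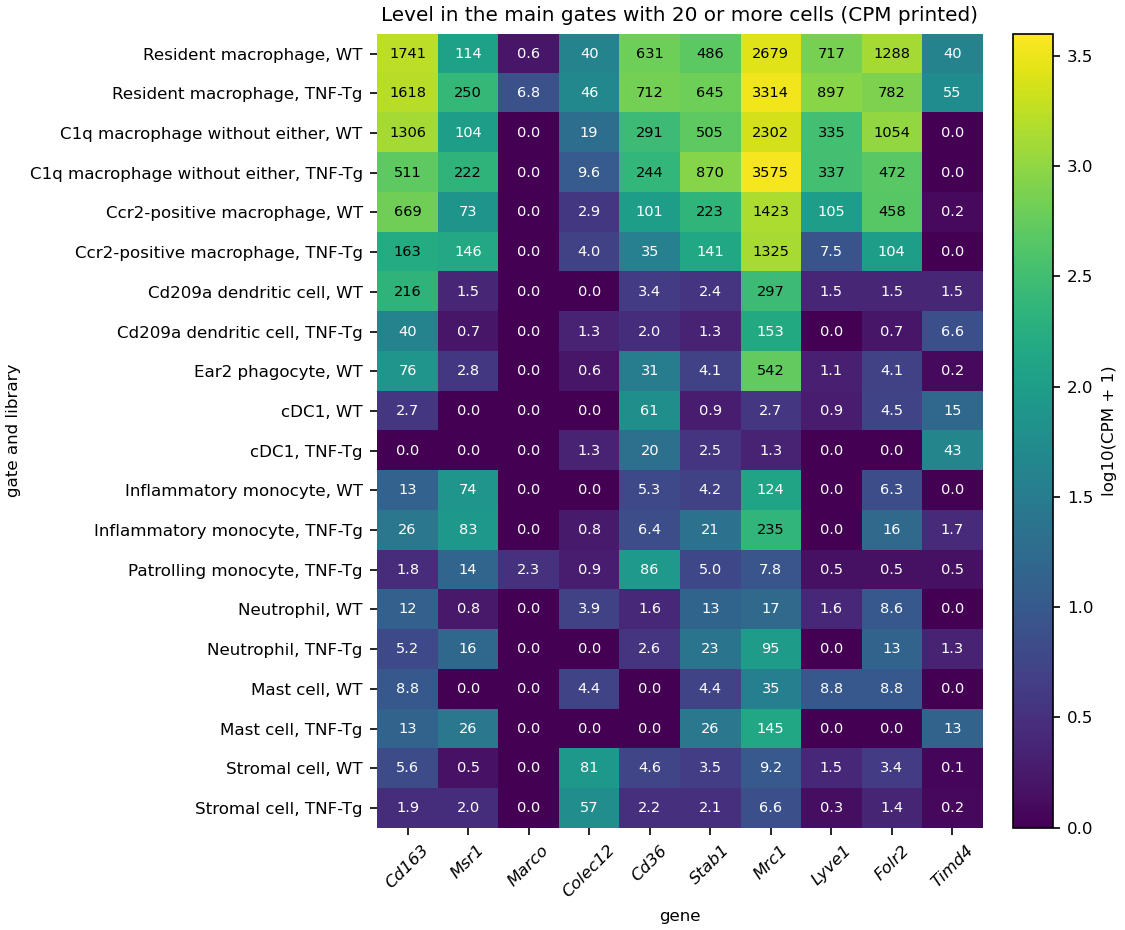
Level of each receptor gene in the main myeloid gates and in stromal cells of WT and TNF-Tg, where a gate held 20 or more cells, coloured by log10(CPM + 1) with the CPM printed. The highest levels sit in the 3 macrophage gates at the top, *Mrc1* reaches into dendritic cells, *Ear2* phagocytes and monocytes, and *Colec12* is highest in stromal cells.

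The other question was how the receptors stood in TNF-Tg against WT within each gate. This comparison has no test, because each condition was 1 library, and a receptor was counted when it was at 10 CPM or more in either library and differed by 2-fold or more. Among resident macrophages, 1 of the 9 receptors at that level was 2-fold higher in TNF-Tg, *Msr1*, and 0 were 2-fold lower, against 3.82% of 7898 genes higher and 2.99% lower. Among *Ccr2*-positive macrophages, 1 of 7 was 2-fold higher, again *Msr1*, and 4 were lower, *Cd163*, *Lyve1*, *Cd36* and *Folr2*, against 5.48% of 7607 genes higher and 9.62% lower. *Lyve1* reached 10 CPM there in WT alone (105 CPM, against 7.53 in TNF-Tg), so its place in this count was favoured by the minimum. The median log2 ratio over the counted receptors was 0.31 in the resident and -1.51 in the *Ccr2*-positive gate, against 0.09 and -0.06 over all genes.

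**Figure D3:**
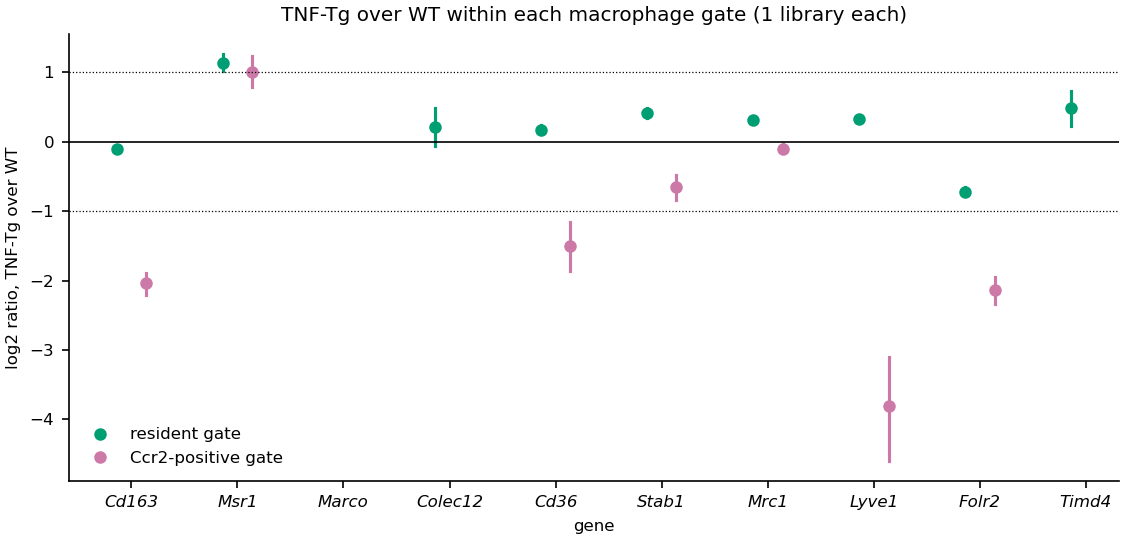
Log2 ratio of TNF-Tg over WT for each receptor gene at 10 CPM or more, in the resident and Ccr2-positive gates, with exact 95% intervals for counting error and dotted lines at 2-fold. *Msr1* is at or above the upper line in both gates, and *Cd163*, *Cd36*, *Lyve1* and *Folr2* are below the lower line in the Ccr2-positive gate alone.

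In resident macrophages most receptors were at similar levels in both libraries. *Cd163* (1741 CPM, 1720 to 1762, in WT, and 1618, 1573 to 1663, in TNF-Tg) had a log2 ratio of -0.11 (-0.15 to -0.06). *Mrc1*, *Lyve1*, *Stab1* and *Cd36* were higher in TNF-Tg by log2 0.31, 0.32, 0.41 and 0.17, *Timd4* by 0.48 (0.22 to 0.72), and for *Colec12* the interval of 0.22 (-0.06 to 0.48) included 0. The TNF-Tg level lay between the lowest and the highest of the other 3 libraries for *Cd163*, *Mrc1*, *Cd36*, *Timd4*, *Colec12* and *Folr2*, and above all 3 for *Lyve1* and *Stab1*. *Folr2* was lower in TNF-Tg by log2 -0.72 (-0.78 to -0.66), that is 1.65-fold, at 782 CPM against 1288, and tdT1, from mice without the TNF transgene, had 748 CPM.

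*Msr1* stood apart in the resident gate, with 250 CPM (232 to 268) in TNF-Tg against 102 to 114 CPM in the other libraries. The ratio to WT was 2.199-fold (2.02 to 2.40). After thinning, 42.4% (36.1 to 48.9) of TNF-Tg and 27.3% (24.8 to 29.95) of WT resident macrophages had a *Msr1* UMI. In *Ccr2*-positive macrophages it was 146 CPM (130 to 162) against 72.5 (64.9 to 80.8), 2.01-fold (1.72 to 2.35). The log2 ratio there was under 2-fold without predicted doublets (0.98) and with no *Ccr2* minimum (0.92). It was also under 2-fold among cells with 50 or more C1q UMIs per 10000 (0.82). Outside the macrophage gates the result for *Msr1* differed by gate. It was higher in TNF-Tg neutrophils, at 15.6 against 0.786 CPM, from 12 UMIs, of which 41.7% came from 1 cell, against 1. It was also higher in stromal cells, at 1.99 against 0.495 CPM. In inflammatory monocytes the log2 ratio of 0.18 (-0.18 to 0.56) included 0. Dendritic cells with *Cd209a* had 0.66 CPM in TNF-Tg against 1.46 in WT, from 1 and 3 UMIs. From WT to TNF-Tg resident macrophages, the 6 neutrophil markers summed to 401 and 982 CPM, the 6 patrolling monocyte markers to 21.1 and 62.6, and the 6 macrophage markers to 19224 and 12427, with all 6 of each detected in both. The part of these cells or of free RNA in the *Msr1* levels was not tested.

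In *Ccr2*-positive macrophages, *Cd163* was at 163 CPM (146 to 180) in TNF-Tg against 669 CPM (646 to 693) in WT, 4.12-fold lower (3.69 to 4.602). *Folr2* was at 104 against 458 CPM, 4.40-fold lower (3.85 to 5.06), and *Cd36* at 35.4 against 101 CPM, 2.84-fold lower (2.24 to 3.65). *Lyve1* was at 7.53 against 105 CPM, 13.9-fold lower (8.60 to 24.1), from 17 UMIs in TNF-Tg of which 29.4% came from 1 cell. The size of this *Lyve1* ratio depended on the gate. Its log2 value of -3.80 became -1.88 with a resident panel minimum of 20 and -1.89 with no *Ccr2* minimum. It was -2.02 where 1 UMI of the resident panel made a cell resident, -2.65 after thinning and -4.91 with clusters. *Stab1* was at 141 against 223 CPM, 1.58-fold lower (1.39 to 1.80; log2 -0.66, and -2.03 where 1 UMI of the resident panel made a cell resident), and *Mrc1* at 1325 against 1423 CPM, 1.07-fold lower (1.03 to 1.12). The TNF-Tg value of *Cd163* was below those of the other 3 libraries, of which tdT1 came nearest with 203 CPM from 8 cells. For *Folr2* the tdT1 value was 28.9 CPM, from 2 UMIs in the same 8 cells, too few to rank it against TNF-Tg.

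The *Ccr2*-positive gates of the 2 libraries differed in more than the receptors. The 6 macrophage markers summed to 13363 CPM in WT and 6742 in TNF-Tg, the 6 *Ear2* phagocyte markers to 13511 and 1967, and the 6 inflammatory monocyte markers to 494 and 893, with all 6 of each panel detected in both. The cells were therefore split at 50 C1q UMIs per 10000, a split chosen after the values were seen. In the 313 WT and 72 TNF-Tg cells at 50 or more, *Cd163* was lower in TNF-Tg by log2 -2.16 (-2.38 to -1.95), *Folr2* by -2.001 (-2.25 to -1.76), *Lyve1* by -3.37 (-4.29 to -2.58) and *Cd36* by -1.40 (-1.88 to -0.95). In the 45 WT and 71 TNF-Tg cells at 20 to 50, *Cd163* was at 121 CPM among the WT and 155 CPM among the TNF-Tg cells (log2 0.36, -0.03 to 0.76), and *Folr2* at 56.5 and 77.6 CPM, 0.46 (-0.11 to 1.05). In the same cells *Cd36* was lower in TNF-Tg (-1.07, -1.76 to -0.39), while *Stab1* (1.95, 1.30 to 2.67) and *Msr1* (2.52, 1.80 to 3.34) were higher. Lower *Cd163* and *Folr2* in TNF-Tg were thus seen in the cells with more C1q and not in those with less. The *Ear2* panel differed between the libraries in both C1q ranges, with 21735 against 2388 CPM at 20 to 50 and 12130 against 1534 CPM at 50 or more. The part of either panel in the result was not tested.

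When the macrophages were ordered by the resident panel instead, the receptors split into sets (see the plot of levels over panel bins). In macrophages with 0 UMIs of the resident panel, *Cd163* stood at 443 CPM in 196 WT cells and 111 CPM in 67 TNF-Tg cells, and *Folr2* at 229 and 53.5 CPM. In those with 40 or more UMIs per 10000, *Cd163* was at 1832 CPM in 819 WT cells and 1770 in 147 TNF-Tg cells, with a log2 ratio of -0.05 (-0.11 to 0.01). *Folr2* stayed lower in TNF-Tg in that top bin, at 958 against 1339 CPM (log2 -0.48, -0.56 to -0.41). *Lyve1* went from a log2 ratio of -2.59 (-4.26 to -1.29) in the bin at 0 to 0.43 (0.35 to 0.51) in the top bin, and *Cd36* from -1.76 (-2.50 to -1.10) to 0.15 (0.06 to 0.24). *Msr1* was higher in TNF-Tg in all 6 bins, by log2 0.54 to 1.52, where the lowest value came from a bin with 14 TNF-Tg cells and had an interval that included 0 (-0.01 to 1.05). *Timd4* was higher where the panel was higher in both libraries, from 5.38 CPM in WT and 4.61 in TNF-Tg at 10 to 20 UMIs per 10000 to 49.4 and 87.9 CPM at 40 or more.

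**Figure D4:**
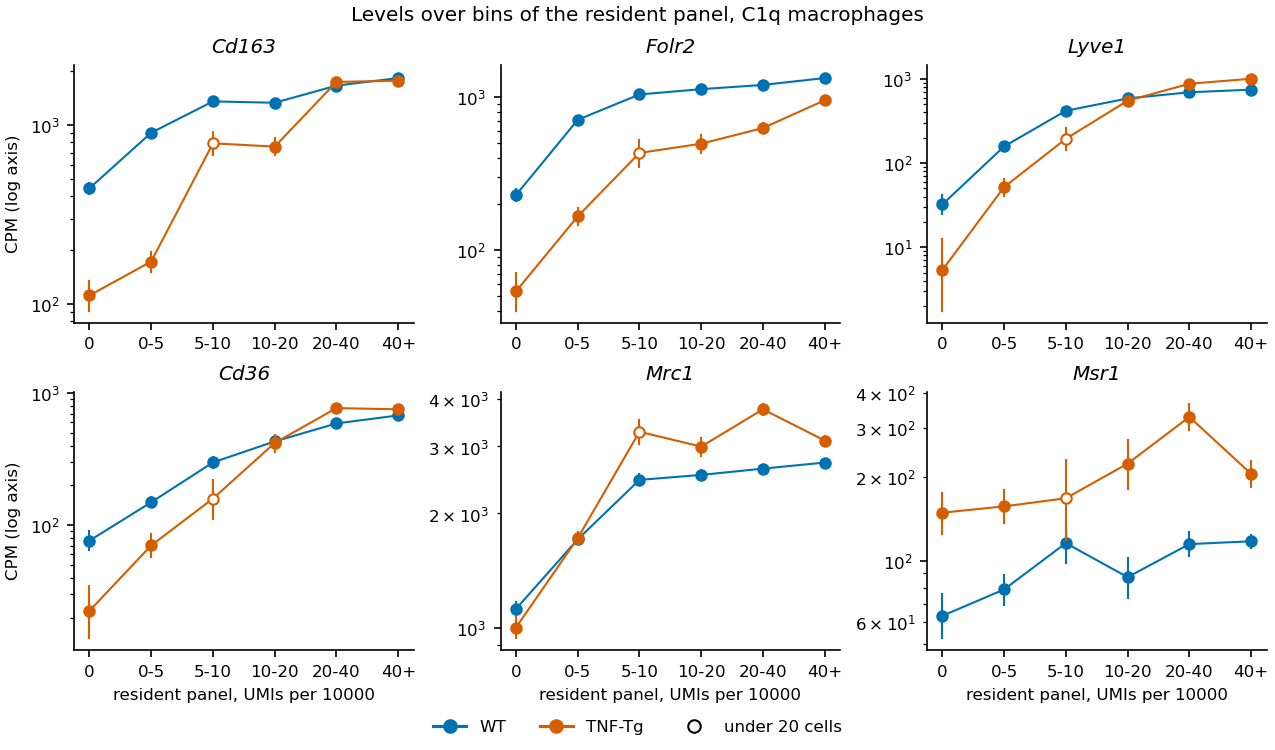
Level of 6 receptor genes (CPM, log axis) in C1q macrophages of WT and TNF-Tg over bins of the resident panel (UMIs per 10000), with exact 95% Poisson intervals and open points for bins under 20 cells. The libraries lie apart at the left and meet or cross at the right for *Cd163*, *Lyve1* and *Cd36*, stay apart throughout for *Folr2*, and *Msr1* is higher in TNF-Tg in every bin.

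Genes that work beside these receptors were counted over lists of named genes, in the same edgeR test of resident against *Ccr2*-positive macrophages. For every list the counts stand against 6.52% of all 7855 genes tested called higher and 4.26% called lower in resident macrophages. Of 18 other scavenger receptors, 5 were tested and 1 was higher in resident macrophages, the lysosomal class B receptor *Scarb2* (log2 1.29, adjusted p = 8.1e-07). *Scarf1* had a log2 ratio of 0.84, *Cd68* 0.34 and the large lipoprotein receptor *Lrp1* -0.70, and none of these passed. Among 19 genes of apoptotic cell uptake, 10 were tested, 2 were higher and 2 lower. The bridging proteins *Gas6* (log2 2.21, adjusted p = 3.1e-14 by edgeR) and *Pros1* (1.90, 9.5e-14), which link phosphatidylserine to TAM receptors, were higher in resident macrophages. The TAM receptor *Axl* (-2.66, 3.3e-14) and the integrin *Itgav* (-1.59, 1.2e-04) were lower. In the resident gates *Axl* was at 3.91 to 24.0 CPM and *Itgav* at 4.57 to 22.7 CPM. Both passed the low-count filter mainly through the *Ccr2*-positive gate, so their calls were favoured by the filter.

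Of 15 other endocytic lectins, 11 were tested, 6 were higher and 2 lower. *Cd209b* (log2 7.55, adjusted p = 5.2e-79) and *Cd209e* (5.53, 3.7e-35) had the largest ratios by the edgeR test, and *Clec4e* (-2.89, 2.5e-19) and *Clec12a* (-2.32, 1.4e-19) the smallest. *Cd209b* and *Cd209e* are of the same family as 3 genes of the gate and were at 0 to 28.9 CPM in the *Ccr2*-positive gates. They passed the low-count filter through the resident gate, so their calls were favoured by the filter and their fitted ratios rest on near-zero counts. *Clec4e*, at 0 to 12.4 CPM in the resident gates, passed that filter mainly through the *Ccr2*-positive gate, so its call was favoured too. Of 11 haemoglobin and haem partners, 9 were tested, 4 were higher and 0 lower in resident macrophages. The iron exporter *Slc40a1* (log2 4.41, adjusted p = 2.5e-12 by edgeR) and the transporter *Slco2b1* (2.42, 5.1e-19) led them. *Slc40a1* was at 11.9 to 34.0 CPM in the resident gates and at 0 in 3 of 4 *Ccr2*-positive gates, so that it passed the low-count filter through the resident gate and its fitted ratio rests on near-zero counts. *Slco2b1*, at 0 to 48.3 CPM in the *Ccr2*-positive gates, also passed that filter through the resident gate, so its call was favoured by the filter. By the same test *Hmox2* (-0.44) and the ferritin light chain *Ftl1* (-0.17) did not pass. *Hmox1* and *Blvrb*, the enzymes that open haem and reduce the biliverdin formed, were among the 4. *Hmox1* was also higher in TNF-Tg than in WT resident macrophages, at 1173 against 384 CPM, where the red cell markers summed to 20.5 against 766 CPM, and their part in this was not tested.

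Of 11 hyaluronan partners, 3 were tested: the hyaluronidases *Hyal2* (log2 1.60, adjusted p = 9.3e-07 by edgeR) and *Cemip2* (1.04, 1.2e-03) were higher in resident macrophages, and the hyaluronan receptor *Cd44* (-0.99, 2.0e-04) was lower, opposite in sign to *Lyve1*. Of the 6 folate genes 1 was tested, the mitochondrial enzyme *Mthfd2*, which was lower (-1.48, 1.9e-04). *Mthfd2* was at 0 to 8.15 CPM in the resident gates. It passed the low-count filter through the *Ccr2*-positive gate, where it was higher, so its call was favoured by the filter. Of 13 lineage factors, 11 were tested, 4 were higher and 0 lower, with *Il10* (1.30, 1.2e-04) at the top and *Spi1*, which encodes PU.1, at -0.39 and *Il10ra* at -0.09 without a call. Of 9 sheddases and their inhibitors, 7 were tested, 3 were higher and 1 lower, led by the gelatinase *Mmp9* (4.04, 4.0e-43) and the inhibitor *Timp2* (1.71, 1.2e-08), with *Adam8* lower (-1.61, 7.5e-06) and *Adam10* at -0.08. In the *Ccr2*-positive gates *Hyal2* was at 0 to 12.7 CPM, *Il10* at 0 to 54.5 and *Mmp9* at 0 to 163. These genes passed the low-count filter through the resident gate, so their calls were favoured by the filter. *Adam8*, at 0 to 10.1 CPM in the resident gates, passed that filter mainly through the *Ccr2*-positive gate, so its call was favoured too.

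Glucocorticoid targets were listed because glucocorticoids are known to induce *Cd163*. Between gates 6 of the 7 were tested and 2 were higher in resident macrophages, *Klf9* (log2 1.61, adjusted p = 1.3e-07 by edgeR) and the receptor *Nr3c1* (1.09, 2.5e-05), while *Per1* (0.56) and *Dusp1* (-0.08) did not pass. *Klf9*, at 0 to 101 CPM in the *Ccr2*-positive gates, passed the low-count filter through the resident gate, so its call was favoured by the filter. Between TNF-Tg and WT, which has no test, 5 of the 7 at 10 CPM were 2-fold or more lower in resident and 5 of 6 in *Ccr2*-positive macrophages of TNF-Tg, against 2.99% and 9.62% of all genes, with median log2 ratios of -2.08 and -2.17. *Zbtb16* in the resident gate reached 10 CPM in WT alone (13.5 CPM, against 1.63 in TNF-Tg). So did *Klf9* and *Fkbp5* (105 against 5.31 CPM) in the *Ccr2*-positive gate. Their places in these counts were therefore favoured by the minimum. *Klf9* had 158 CPM in resident macrophages of WT and 13.7 in those of TNF-Tg, and *Per1* 64.5 and 20.9 CPM. *Klf9* also differed between the tdT libraries, at 351 CPM in tdT1 and 17.99 CPM, from 3 UMIs, in tdT2. *Cd163* in the same resident gates lay between 1487 and 1994 CPM in all 4 libraries. In *Ccr2*-positive macrophages *Klf9* was at 61.5 CPM in WT and 1.33 CPM, from 3 UMIs, in TNF-Tg, and *Cd163* at 669 and 163 CPM. A link between the glucocorticoid targets and *Cd163* was not tested.

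Over the 35 sums of a gate in a library with at least 20 cells, the genes whose log2(CPM + 1) was most like that of each receptor were found by Pearson's r, as a description over sums that share libraries and depth. *Cd163* was closest to *C1qa* (0.92), *C1qb* and *C1qc*, which were part of the gates, and *Mrc1* to the coagulation factor gene *F13a1* (0.93), *Nxpe5* and *C1qb*. *Stab1* was closest to *Ednrb* (0.96), a gene of the resident panel, then *Ccl12* and *Prune2*. *Folr2* was closest to the chemokine gene *Ccl12* (0.93), *Cbr2* and *Ccl24*, *Msr1* to *Ms4a4a* (0.94), *Tfec* and *Ms4a7*, and *Lyve1* to *Chp2* (0.93), *Epor* and *Slc7a13*. *Colec12* was closest to *Spats2* (0.95), *Epn2* and *Npr1*, *Cd36* to *Plekhg5* (0.89), *Stard8* and *Scarf1*, and *Timd4*, with the lowest values, to *Dnase1l3* (0.81), *Barx2* and *Klra3*. *Marco* reached 10 CPM in no sum and was left out.

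On GRCm38, the assembly of mm10, GENCODE places *Cd163* at chr6:124304656-124330527 on the plus strand, *Mrc1* at chr2:14229392-14332057 (plus), *Timd4* at chr11:46810800-46844332 (plus), *Stab1* at chr14:31139013-31168641 (minus), *Cd36* at chr5:17781690-17888801 (minus), *Marco* at chr1:120474538-120505024 (minus) and *Msr1* at chr8:39581685-39642673 (minus). *Folr2* (chr7:101839988-101857194, minus) and *Lyve1* (chr7:110850607-110863239, minus) lie on the same chromosome. All are protein-coding genes, and UMIs were counted per gene over their length.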

How the data were processed

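Single-cell suspensions of pooled vessels were captured on the 10x Genomics 3′ platform in 4 libraries. The deposited values are UMI counts per gene in each cell barcode. The authors counted them with Cell Ranger (3.1.0 for tdT1 and 6.0.1 for the others in the matrix headers, 3.1 and 3.1.0 in the submitters' processing notes) on mm10, without normalization. The counting of multi-mapped or overlapping reads could affect single genes and was not examined.

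The receptors, gates and gene lists were chosen with earlier results of these data known, and part of the gate markers came from cluster tables of the same libraries. Thresholds of the gates were set from the marker genes alone. All 10 receptors are named, and from each companion list the 2 largest and 2 smallest log2 ratios among genes tested (*Hmox1* and *Blvrb* were added after their values were seen, and 1 gene of the lineage list is not reported here).

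Counts were summed per gate and library. The 8 sums were tested in edgeR 4.0.16 by its quasi-likelihood method (TMM, filterByExpr, library as a block, Benjamini-Hochberg adjustment over 7855 genes, threshold 0.01), with DESeq2 1.42.0 as an alternative, in R 4.3.3. SE values are those implied by the edgeR test. Checked on simulated data of 7855 genes for this comparison, edgeR found 24 of 50 genes changed by log2 1 and 50 of 50 at each of log2 2, 3 and 4, and called 0 unchanged genes. The simulated libraries shared a common profile and differed only in depth. The check therefore cannot show how the fit behaves where libraries differ, as they did here. CPM have exact Poisson, shares Clopper-Pearson and ratios exact conditional binomial intervals (scipy 1.17.1). Cells were thinned to 3000 UMIs with seed 42. Scrublet in scanpy 1.11.5 marked 4, 1, 138 and 49 doublets in tdT1, tdT2, WT and TNF-Tg, which were kept except in an alternative. P-values rest on the spread between these libraries as estimated across genes, and this spread may in part be technical.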

Additional observations from a re-analysis of the deposited data

Results flagged for a closer look

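In 4 receptors the ratio of TNF-Tg over WT pointed up in resident and down in *Ccr2*-positive macrophages, with both counting intervals on their side of 0. The log2 ratio of the resident gate minus that of the *Ccr2*-positive gate was 4.12 for *Lyve1*, 1.68 for *Cd36*, 1.07 for *Stab1* and 0.41 for *Mrc1*. The difference was not tested, because each condition was 1 library. The share of all genes with such opposite signs is not given here, so the count of receptors cannot be set against it. For *Mrc1* the ratio in the *Ccr2*-positive gate, -0.10, became -0.0045 with TMM scaling, 0.04 with a C1q minimum of 10 in place of 20 UMIs per 10000 and 0.63 among cells with 20 to 50 C1q UMIs per 10000, and for *Cd36* the ratio in the resident gate, 0.17, became -0.11 when 1 UMI of the resident panel was enough. For *Stab1* the ratio in the *Ccr2*-positive gate was 1.95 among cells with 20 to 50 C1q UMIs per 10000 and -0.74 among those with more.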

How the results depend on the processing

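Between gates, 0 to 8 receptors were called under the alternatives against 7, where the counts of 8 include *Timd4* or *Msr1*. The count was 2 without the library block and 0 with clusters in place of gates, where 2 libraries were left, and it lay between 5 and 8 when 1 library was left out, with *Mrc1* lost without tdT2, *Mrc1* and *Colec12* without TNF-Tg, and *Colec12* without WT. All 7 were kept by DESeq2, which called 471 genes in place of 847, and at an adjusted p of 0.05 *Msr1* was added. The number of genes called over all was 121 without the block and 62 with clusters. Of 142 ratios of single receptors between gates under alternatives, 127 kept their direction and their side of the threshold, among them 18 of *Msr1*, which had no call, and 15 kept their direction and lost the call. In an alternative gate a resident cell needed a *Lyve1* and a *Cd209f* UMI. The *Lyve1* ratio under that gate (log2 4.52) was high by construction and is no check, though it is among the 127. With WT and TNF-Tg alone 7 receptors were called, without *Mrc1* and with *Timd4*. No paired analysis was possible because WT and TNF-Tg are 1 sample each and share fewer than 2 replicate numbers, while the 2 gates of a library were paired by the library block.

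Between TNF-Tg and WT, the resident count of 1 became 2 when 1 UMI of the resident panel was enough and at 1.5-fold, both by *Folr2*, and the *Ccr2*-positive count of 5 lay between 4 and 6 under every alternative. In the *Ccr2*-positive cells with 20 to 50 C1q UMIs per 10000, *Cd163* and *Folr2* reversed, at log2 0.36 and 0.46. The 22 and 48 resident cells of the tdT libraries and their 8 and 9 *Ccr2*-positive cells limit what these libraries can show.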
